A study of Homo sapiens with 9 samples.

Results

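The expression of 10 genes at the core of transforming growth factor beta (TGF-β) signaling was measured in 3 human pancreatic ductal adenocarcinoma (PDAC) cell lines. The genes were taken by their symbols from a count table of 42717 genes, by a rule that uses no expression value, although earlier results of these data were known when they were chosen. They comprised the ligand genes TGFB1, TGFB2, TGFB3 and INHBA, the receptor genes TGFBR1, TGFBR2 and TGFBR3, and the signal transducer genes SMAD3, SMAD4 and SMAD7. S2-007, S2-020 and S2-028 are sublines that were derived from the same parent PDAC line, SUIT-2, and each was sequenced as 3 libraries of poly(A)-selected RNA, 9 libraries in all. The lines differ in maspin, a serpin protein, which lies in nucleus and cytoplasm of S2-007 cells, in the cytoplasm of S2-028 cells, and is weak in S2-020 cells. The cells were grown in DMEM with fetal bovine serum, which can itself carry TGF-β, and the labels give no treatment for any line. Each line is a single subline, so a difference between lines cannot be told apart from a difference between clones, and the sources used here do not say whether the 3 libraries of a line came from separate cultures. The p-values below therefore measure the spread between these libraries, which may be technical.

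TGF-β ligands are secreted in a latent form, held in the matrix by binding proteins and released by integrins and proteases. The active ligand joins a type II receptor to a type I receptor, which phosphorylates SMAD2 and SMAD3, and these enter the nucleus together with the common partner SMAD4 to change transcription, while SMAD7 is induced by the pathway and inhibits it. In pancreatic epithelium the pathway is known for restraining growth, in carcinoma also for promoting epithelial-mesenchymal transition, and SMAD4 is among the tumor suppressor genes most often lost in PDAC.

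Between 60328748 and 86253923 reads were assigned to genes in each library. The chi-square statistic per gene was 7.95 to 21.5 between libraries of the same line and 205 to 311 between libraries of different lines, so no library was a copy of another and none resembled another line. The ductal epithelial markers, 7 keratin, adhesion and mucin genes, were all detected, and their summed level was 9731 to 10075 CPM (counts scaled to library size) in S2-007, 4265 to 5402 in S2-020 and 15009 to 17867 in S2-028. Detection alone does not show that S2-020 was as epithelial as the other lines. KRT8 at 2885 ± 363 CPM and KRT18 at 1667 ± 198 made up most of the S2-020 sum (SD, n = 3). All 7 markers were lower in S2-020 than in S2-007, 6 of them by at least 1.5-fold. KRT19 was at 102 ± 13.1 CPM in S2-020 against 2150 ± 66.7 in S2-007. In the same comparison, CDH1, encoding E-cadherin, differed by -3.61 on the log2 scale, KRT7 by -2.38 and EPCAM by -2.15. CDH1 differed by 4.63 in S2-028 against S2-020. The 9 stromal, endothelial and leukocyte markers summed to 47.0 to 51.9 CPM in S2-007, 17.5 to 19.4 in S2-020 and 17.4 to 18.1 in S2-028. Of these, CD68 and PECAM1 made up most of the sum in every line, and COL1A2 had no more than 3 counts in any S2-028 library. The 7 acinar and endocrine markers summed to 0.738 to 1.58 CPM in the 9 libraries, with AMY2A at 0 in each. In bulk RNA of a cultured line, fewer cells expressing a gene and less of its RNA per cell cannot be told apart.

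Across the 3 lines, the amount of TGFB2, encoding a TGF-β ligand, climbed from S2-007 through S2-020 to S2-028, whereas TGFB1 was abundant and nearly level. S2-020 stood apart from both other lines by a lower SMAD3, encoding a receptor-activated SMAD, and a higher SMAD7 and TGFBR3. TGFBR1, encoding the type I receptor, was lower in S2-028 than in S2-007. SMAD4 was barely expressed in any of the 9 libraries. A gene was called where edgeR's quasi-likelihood test gave a Benjamini-Hochberg adjusted p under 0.05 over all genes tested and the level differed by at least 1.5-fold. All 10 genes passed the filter on low counts in each comparison.

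In S2-028 against S2-007, 2 of the 10 genes were called, 1 higher and 1 lower, where 18.4% of 26371 genes tested were called (10.2% higher and 8.19% lower). In S2-020 against S2-007, 4 of the 10 were called, 3 higher and 1 lower, where 21.6% of 26657 genes were called (9.57% higher and 12.1% lower). In S2-028 against S2-020, 5 of the 10 were called, 3 higher and 2 lower, beside 22.2% of 26031 genes (12.1% higher and 10.1% lower). The first count was near the share over all genes. Without S2-028 replicate 3 the third count was 3. Their log2 fold changes had medians of 0.10, -0.03 and 0.08 in the 3 comparisons, and those of all genes were 0.00, -0.05 and 0.02. There was no overlap between the libraries of either line for 4, 7 and 8 of the 10 genes in these comparisons, against 43.7%, 48.8% and 48.6% of all genes. The comparisons share lines with each other, so they are not independent.

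**Figure D1:**
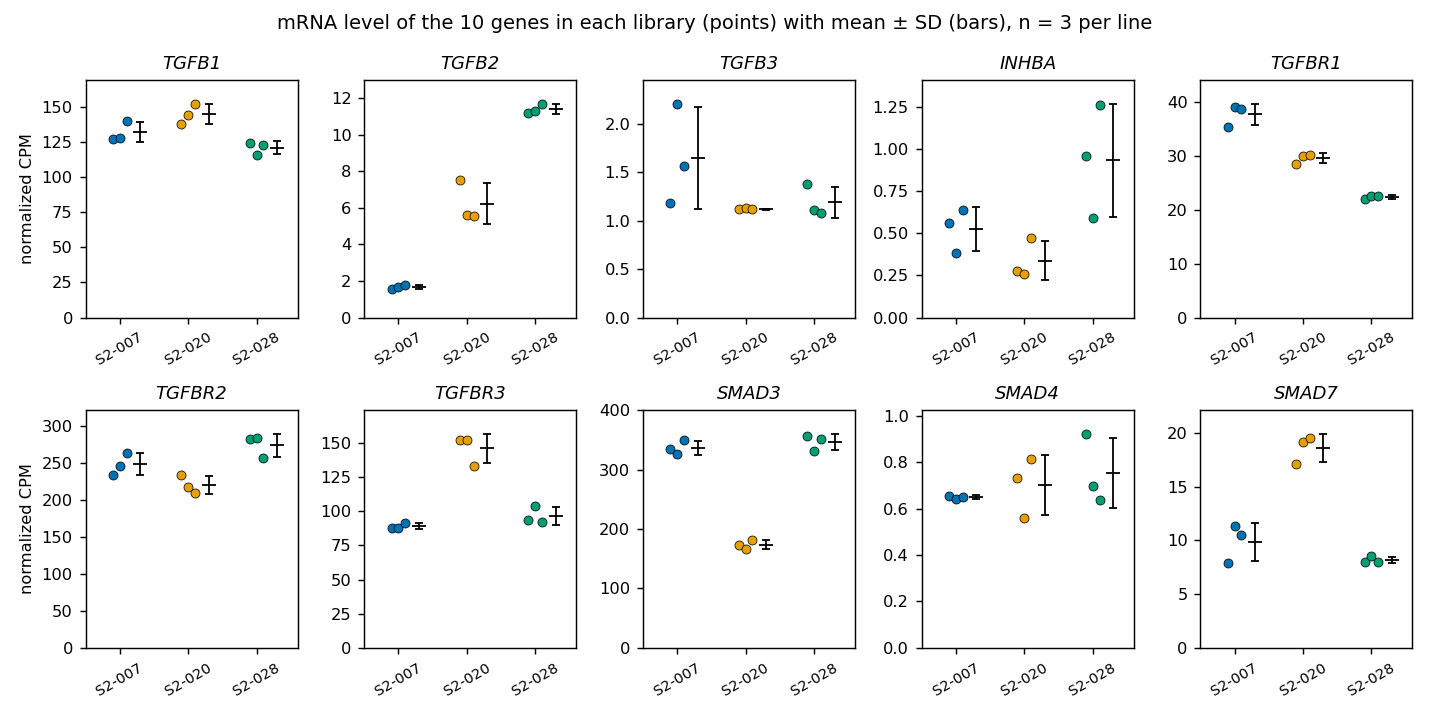
Normalized CPM of the 10 genes in each library (points) of each line, with the mean ± SD of 3 libraries beside them; every vertical axis is linear and starts at 0 with its own range. TGFB2 climbs from 1.68 in S2-007 to 6.21 in S2-020 and 11.4 in S2-028, SMAD3 is low and SMAD7 and TGFBR3 are high in S2-020, and SMAD4 stays under 1 CPM in all libraries.

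TGFB2 (chr1:218345336-218444619, plus strand, GRCh38.p14) encodes TGF-β2, a ligand that depends on TGFBR3 for efficient binding to its receptors. Its level was 1.59, 1.68 and 1.78 CPM in the S2-007 libraries, 7.50, 5.58 and 5.56 in S2-020, and 11.2, 11.3 and 11.7 in S2-028. The 3 lines did not overlap, and S2-020 spread more than the others because its replicate 1 was above the other 2 libraries. The log2 fold change was 2.79 ± 0.149 (standard error, as in every log2 fold change below) in S2-028 against S2-007, a 6.9-fold higher level (adjusted p = 2.66e-12). It was 1.89 ± 0.180 in S2-020 against S2-007, or 3.7-fold (adjusted p = 3.63e-08), and 0.87 ± 0.134 in S2-028 against S2-020, or 1.8-fold (adjusted p = 2.22e-05). All 3 differences were larger than the spread between libraries. Of the exon bases of TGFB2, 34.2% lie under TGFB2-AS1 on the opposite strand and TGFB2-OT1 on the same strand. The table gave these genes 0 to 12 and 0 to 36 counts in any library, against 116 to 727 for TGFB2, and how reads were divided between overlapping genes is not given in the sources used here.

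TGFB1 (chr19:41330323-41353922, minus strand) encodes TGF-β1, the isoform usually most abundant in epithelial cancers. Its level was 127, 128 and 140 CPM in S2-007, 138, 144 and 152 in S2-020, and 124, 116 and 123 in S2-028. S2-028 lay below both other lines, and S2-007 overlapped S2-020. The log2 fold change was -0.27 ± 0.0554 in S2-028 against S2-020 (adjusted p = 5.70e-04), under 1.5-fold and so not called. The values against S2-007 were -0.09 ± 0.0611 for S2-028 (adjusted p = 0.286) and 0.14 ± 0.0567 for S2-020 (adjusted p = 0.0578).

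TGFB3 (chr14:75958097-75983011, minus strand), the gene of the third isoform, was at a low level throughout. It measured 1.18, 2.21 and 1.56 CPM in S2-007, 1.12, 1.13 and 1.12 in S2-020, and 1.38, 1.11 and 1.08 in S2-028. The S2-007 libraries spread widely and the line differences were within or near that spread. The log2 fold changes were -0.44 ± 0.284 in S2-028 against S2-007, -0.55 ± 0.269 in S2-020 against S2-007 and 0.08 ± 0.270 in S2-028 against S2-020, with adjusted p of 0.271, 0.116 and 0.868. Without S2-007 replicate 1, the value for S2-020 against S2-007 was -0.74 (adjusted p = 0.0399), which passed both thresholds.

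INHBA (chr7:41685114-41705406, minus strand) encodes the subunit of activin A, a related ligand that signals through SMAD2 and SMAD3 by its own receptors. It had 28 to 47 counts per library in S2-007, 20 to 34 in S2-020 and 38 to 77 in S2-028, so its values carry a large counting error. Its level was 0.560, 0.383 and 0.637 CPM in S2-007, 0.277, 0.261 and 0.469 in S2-020, and 0.955, 0.588 and 1.26 in S2-028. S2-028 lay above S2-020 in every library and overlapped S2-007. The log2 fold change was 1.46 ± 0.424 in S2-028 against S2-020 (adjusted p = 0.00855), and 1.20 with adjusted p = 0.0669 without S2-028 replicate 3. In S2-028 against S2-007 it was 0.85 ± 0.389 (adjusted p = 0.107), and 1.08 with adjusted p = 0.0415 without S2-028 replicate 2. The value for S2-020 against S2-007 was -0.65 ± 0.463 (adjusted p = 0.307). The antisense gene INHBA-AS1, which overlaps 2.99% of the exon bases, had 6 to 47 counts. The libraries were strand-specific, but whether the counting used strand is not given in the sources used here.

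Scaled to transcript length, TGFB1 made up nearly all of the TGF-β ligand mRNA in every line. Its share of the summed CPM per kilobase of the 3 isoforms reached 98.4% ± 0.347 in S2-007, 97.4% ± 0.466 in S2-020 and 95.0% ± 0.0891 in S2-028 (SD, n = 3 each). The share of TGFB2 was 0.583%, 0.611% and 0.593% in the S2-007 libraries, 2.50%, 1.79% and 1.69% in S2-020, and 4.09%, 4.36% and 4.27% in S2-028. TGFB3 had shares of 1.00% ± 0.333, 0.612% ± 0.0298 and 0.756% ± 0.0930 in S2-007, in S2-020 and in S2-028. By its mean share per kilobase, TGFB2 was thus the scarcest isoform in S2-007 and the second in the other lines. Its rank in S2-007 rests on the scaling to length, since unscaled TGFB2 and TGFB3 were at 1.68 ± 0.0950 and 1.65 ± 0.525 CPM there. The exact permutation test, two-sided over 3 against 3 libraries, gave p = 0.1 for TGFB2 in all 3 comparisons, the smallest p this design allows, and 0.113 after Benjamini-Hochberg adjustment over 9 tests.

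The upstream sequences of TGFB2, SMAD7 and SMAD4 are shown because TGFB2 differed most between the lines, SMAD7 is a known direct target of SMAD proteins, and SMAD4 had the lowest level per kilobase of the genes called in no comparison. They are the 250 bases before the annotated start in the RefSeq promoter table of GRCh38.p14, 5′ to 3′ on the strand of the gene, at chr1:218345086-218345335 (plus), chr18:48950966-48951215 (minus) and chr18:51029963-51030212 (plus). Capitals mark CAGAC, the short element that SMAD3 and SMAD4 bind, searched on both strands (the other strand reads GTCTG).
TGFB2: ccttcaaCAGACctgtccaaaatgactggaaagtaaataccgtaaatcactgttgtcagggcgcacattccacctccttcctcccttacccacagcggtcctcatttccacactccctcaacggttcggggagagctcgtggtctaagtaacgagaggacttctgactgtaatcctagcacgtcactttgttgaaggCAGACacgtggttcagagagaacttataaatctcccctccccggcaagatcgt
SMAD7: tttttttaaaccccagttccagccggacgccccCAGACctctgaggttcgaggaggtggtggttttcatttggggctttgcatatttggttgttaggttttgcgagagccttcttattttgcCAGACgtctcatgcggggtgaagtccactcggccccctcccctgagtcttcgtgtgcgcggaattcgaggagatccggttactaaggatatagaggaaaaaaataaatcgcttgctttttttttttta
SMAD4: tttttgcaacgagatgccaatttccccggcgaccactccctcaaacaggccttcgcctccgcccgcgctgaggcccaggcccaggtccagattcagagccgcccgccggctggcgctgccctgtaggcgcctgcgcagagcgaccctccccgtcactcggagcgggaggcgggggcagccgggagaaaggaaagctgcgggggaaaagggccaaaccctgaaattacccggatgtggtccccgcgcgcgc
TGFB2 held 2 matches, 243 and 53 bases before the start, SMAD7 held 2, 217 and 128 bases before it, and SMAD4 held none. Of the 8 genes with a window at their start, 3 held the element, 2 times each, the third being TGFB3. At least 1 match occurred in 38.0% of all 35116 windows of the same length and at least 2 matches in 8.84%. A match is a string of letters in this window and not a measured binding site, and binding was not measured in these samples.

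**Figure D2:**
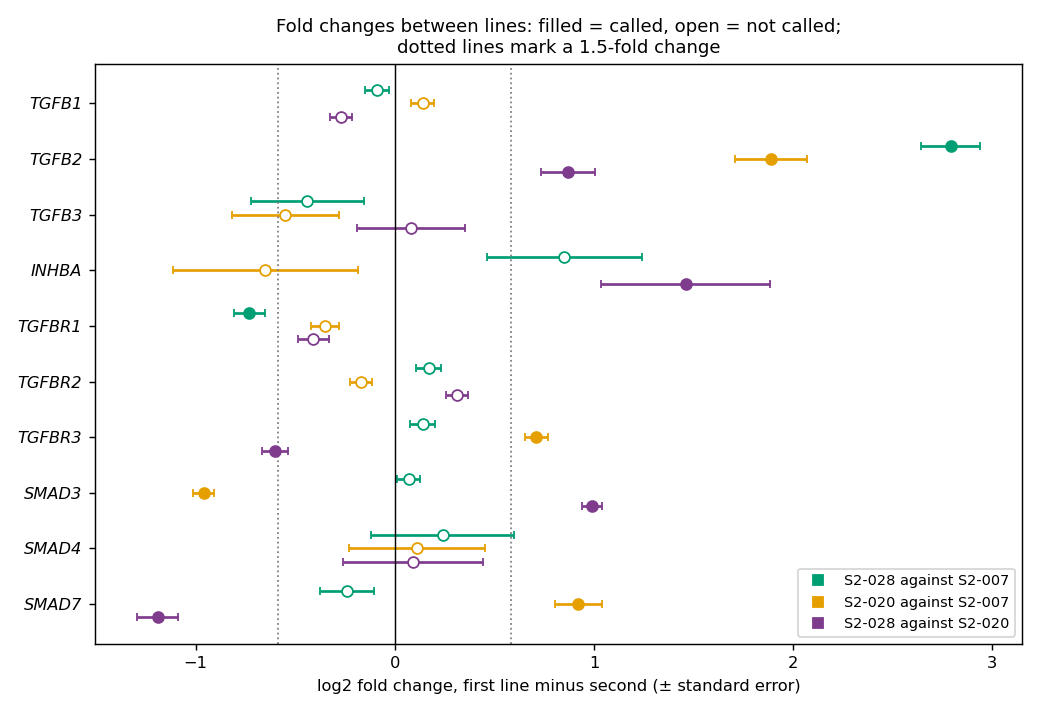
Log2 fold change of each of the 10 genes in the 3 comparisons between lines, first line minus second, with the standard error as bars; filled points were called and open points were not, and dotted lines mark a 1.5-fold change. TGFB2 lies to the right in all 3 comparisons (0.87 to 2.79), and SMAD3 and SMAD7 move in opposite directions wherever S2-020 is compared.

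TGFBR1 (chr9:99103647-99154192, plus strand) encodes the type I receptor, the kinase that phosphorylates SMAD2 and SMAD3. Its level was 35.5, 39.1 and 38.8 CPM in S2-007, 28.6, 30.1 and 30.3 in S2-020, and 22.0, 22.7 and 22.7 in S2-028. The lines formed 3 separate steps, in the order opposite to that of TGFB2. It was lower in S2-028 than in S2-007, at -0.73 ± 0.0779 on the log2 scale or 1.7-fold (adjusted p = 1.49e-07). The other steps were -0.35 ± 0.0690 in S2-020 against S2-007 (adjusted p = 3.29e-04) and -0.41 ± 0.0773 in S2-028 against S2-020 (adjusted p = 2.16e-04), each larger than the library spread but under 1.5-fold.

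TGFBR2 (chr3:30606356-30694142, plus strand) encodes the type II receptor that binds the ligand first, and its mRNA was the most abundant per kilobase of the 3 receptor genes in every line. Its level was 234, 246 and 264 CPM in S2-007, 233, 218 and 209 in S2-020, and 282, 283 and 256 in S2-028. S2-028 was above S2-020 in every library and overlapped S2-007. No comparison was called, and the log2 fold changes were 0.17 ± 0.0624 in S2-028 against S2-007, -0.17 ± 0.0565 in S2-020 against S2-007 and 0.31 ± 0.0554 in S2-028 against S2-020, with adjusted p of 0.0436, 0.0187 and 1.31e-04.

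TGFBR3 (chr1:91680343-91906002, minus strand) encodes betaglycan, a co-receptor that presents TGF-β2 to the signaling receptors. Its level was 87.8, 87.9 and 91.4 CPM in S2-007, 152, 152 and 133 in S2-020, and 93.7, 104 and 92.1 in S2-028. S2-020 was above both other lines in every library. The log2 fold change was 0.71 ± 0.0585 in S2-020 against S2-007 (adjusted p = 4.10e-09) and -0.60 ± 0.0647 in S2-028 against S2-020 (adjusted p = 2.45e-07). The latter lies just past the 1.5-fold limit, and it was -0.58 without S2-028 replicate 1, -0.56 without S2-028 replicate 3, -0.58 without S2-020 replicate 1 and -0.57 without S2-020 replicate 2, none of which was called. In S2-028 against S2-007 it was 0.14 ± 0.0636 (adjusted p = 0.0968).

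SMAD3 (chr15:67065602-67195169, plus strand), whose protein carries the signal from the receptor to DNA, had a level of 335, 326 and 350 CPM in S2-007, 174, 166 and 181 in S2-020, and 357, 331 and 352 in S2-028. S2-020 was far below both other lines, which overlapped each other. The log2 fold change was -0.96 ± 0.0525 in S2-020 against S2-007, 1.9-fold lower (adjusted p = 8.52e-12), and 0.99 ± 0.0517 in S2-028 against S2-020, 2.0-fold higher (adjusted p = 6.60e-12). Between S2-028 and S2-007 it was 0.07 ± 0.0573 (adjusted p = 0.446). The 50 tested genes nearest to SMAD3 had a median log2 fold change of -0.35 in S2-020 against S2-007, below the -0.05 of all genes. Of these 50, 1 was called higher and 8 lower, where 9.57% and 12.1% of all genes were called. In S2-028 against S2-020, the 50 genes nearest to SMAD3 had a median of 0.19, and the 20 nearest 0.06, beside 0.02 for all genes. Of the 50, 6 were called higher and 1 lower, where 12.1% and 10.1% of all genes were called. Around TGFB1 in S2-020 against S2-007, the median was 0.27, with 17 called higher and 6 lower, while TGFB1 was not called. The part of the surrounding region in the SMAD3 result was not tested.

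SMAD7 (chr18:48919853-48950965, minus strand), encoding the inhibitory SMAD, showed the opposite pattern. Its level was 7.86, 11.3 and 10.5 CPM in S2-007, 17.1, 19.2 and 19.5 in S2-020, and 8.03, 8.52 and 8.00 in S2-028. S2-020 again stood apart, this time above both other lines, and S2-007 and S2-028 overlapped. The log2 fold change was 0.92 ± 0.118 in S2-020 against S2-007, 1.9-fold higher (adjusted p = 2.18e-06), and -1.19 ± 0.104 in S2-028 against S2-020, 2.3-fold lower (adjusted p = 1.35e-08). Between S2-028 and S2-007 it was -0.24 ± 0.138 (adjusted p = 0.206). The 7 ductal markers were also lower in S2-020 than in S2-007, and 6 of them were called. The part of that difference in the SMAD3, SMAD7 and TGFBR3 results was not tested.

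SMAD4 (chr18:51030213-51085042, plus strand) encodes the partner shared by the TGF-β and bone morphogenetic protein (BMP) branches. It had 48, 47 and 48 counts in the S2-007 libraries, 53, 47 and 59 in S2-020, and 57, 45 and 39 in S2-028. The exact 95% Poisson intervals of these counts ran from 27.7 to 76.1 and do not cover PCR duplication or differences between libraries. They also take each count as independent. COL1A2 had an even count in every library, 2 to 14, as where both reads of a pair are counted. SMAD4 itself had an odd count in most libraries, and PTPRC had 23, 19 and 25 counts in S2-007. The sources used here do not give whether both reads of a pair were counted. Where they were, the intervals are too narrow. The level was 0.656, 0.642 and 0.651 CPM in S2-007, 0.734, 0.558 and 0.813 in S2-020, and 0.923, 0.697 and 0.637 in S2-028. All lines overlapped. The log2 fold changes were 0.24 ± 0.360 in S2-028 against S2-007, 0.11 ± 0.342 in S2-020 against S2-007 and 0.09 ± 0.352 in S2-028 against S2-020 (adjusted p of 0.698, 0.849 and 0.876), so a difference of the size of these errors was not detectable at this depth. Of the exon bases of SMAD4, 4.93% lie under ENSG00000267699 on the same strand. How reads were divided between these genes is not given in the sources used here.

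Per kilobase of transcript, SMAD4 was at 0.0741 ± 0.000789 CPM in S2-007, 0.0800 ± 0.0149 in S2-020 and 0.0857 ± 0.0172 in S2-028 (SD, n = 3), and 82.4%, 80.3% and 80.7% of 18921 protein-coding genes were above it. SMAD3 was at 52.2 ± 1.86, 26.9 ± 1.19 and 53.6 ± 2.13 CPM per kilobase in the same lines. The genes on either side of SMAD4 were expressed. ELAC1, the nearest on the centromeric side, was at 1.33 ± 0.222, 1.48 ± 0.200 and 1.91 ± 0.342 CPM per kilobase in S2-007, in S2-020 and in S2-028. ME2 was at 4.54 ± 0.330, 7.35 ± 0.310 and 4.26 ± 0.257, and MEX3C, on the far side, at 6.49 ± 0.281, 7.68 ± 0.178 and 9.65 ± 0.879. Among 20 protein-coding genes within 3 Mb, SMAD4 included, only DCC had a lower mean than SMAD4, in each of the 3 lines. Low levels were not particular to SMAD4 in this stretch, since ZBTB7C was at 0.115 ± 0.0381 in S2-007.

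**Figure D3:**
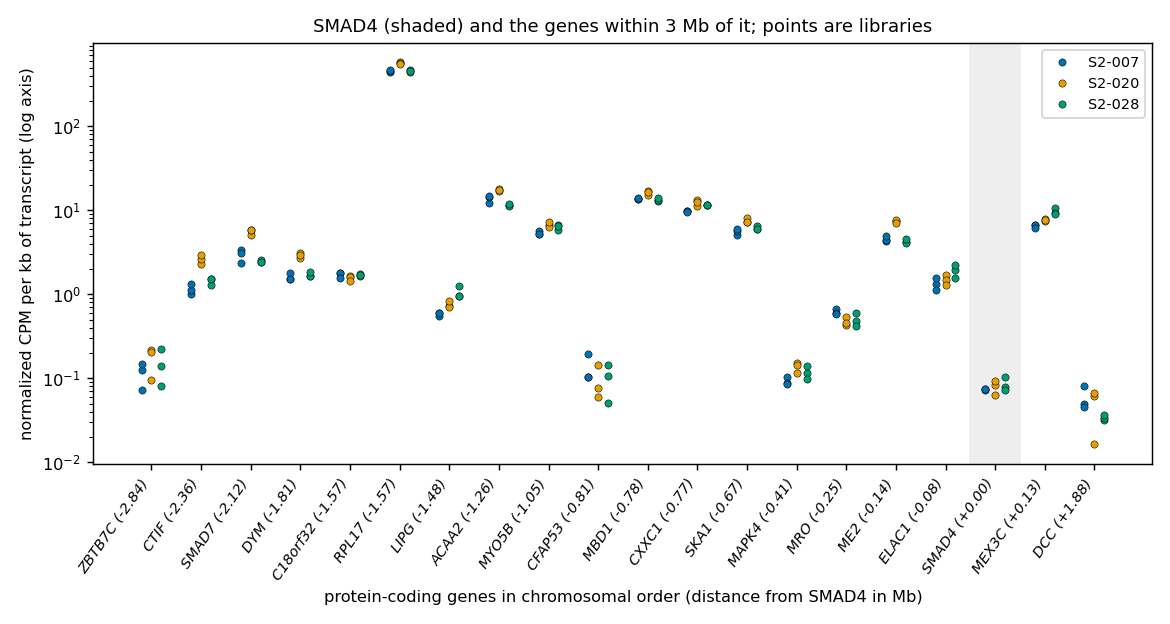
Normalized CPM per kilobase of transcript (log axis) in each library for SMAD4 (shaded) and the protein-coding genes within 3 Mb of it, in chromosomal order with the distance in Mb. SMAD4 sits near 0.08 in all lines, between ELAC1 at 1.33 to 1.91 and MEX3C at 6.49 to 9.65, and only the mean of DCC is below it.

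The order of the 10 genes by level per kilobase shows which ones dominate. In S2-007, TGFBR2 (54.8 ± 3.30 CPM per kilobase), SMAD3 (52.2 ± 1.86) and TGFB1 (47.3 ± 2.53) formed the top, and TGFBR2 and SMAD3 did not differ beyond their spread. TGFBR3 (14.1 ± 0.322), TGFBR1 (5.82 ± 0.309) and SMAD7 (2.95 ± 0.534) followed. TGFB3 (0.481 ± 0.153), TGFB2 (0.286 ± 0.0162), INHBA (0.0871 ± 0.0216) and SMAD4 (0.0741 ± 0.000789) were at the bottom, where INHBA and SMAD4 did not differ beyond their spread. In S2-028, TGFB2 had moved up to 1.94 ± 0.0443 CPM per kilobase, next below SMAD7 at 2.45 ± 0.0871. In S2-020, TGFB1 (52.1 ± 2.63) and TGFBR2 (48.6 ± 2.59) led, and SMAD3 (26.9 ± 1.19) and TGFBR3 (23.0 ± 1.71) were closer to each other than in the other lines.

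The median gene around TGFB2 did not follow it. The 50 tested genes nearest to TGFB2, within 4.7 Mb, had median log2 fold changes of -0.19 in S2-028 against S2-007, -0.08 in S2-020 against S2-007 and -0.13 in S2-028 against S2-020. Over the 9 libraries, the genes whose mean-centred log2 CPM lay closest to that of TGFB2, of 16616 genes compared, were PARD3B and HES7, each at a root mean square distance of 0.13, and GPSM3 at 0.14. TGFB2 was the only member whose line means spanned at least 2 on the log2 scale, at 2.74, so no such genes were sought for the others.

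Beyond the 10 genes, 84 genes of the pathway were examined in 6 lists. In S2-028 against S2-007, 34 of 77 tested were called, 19 higher and 15 lower (44.2%). In S2-020 against S2-007, 43 of 78 were called, 23 higher and 20 lower (55.1%), and in S2-028 against S2-020, 32 of 78, 15 higher and 17 lower (41.0%). These shares stand beside 18.4%, 21.6% and 22.2% of all genes. The lists differed in this. Inhibitors were called at 14.3%, 26.7% and 26.7% in the same order of comparisons. Other SMADs and nuclear partners were called at 9.09%, 27.3% and 27.3%. Both lists were thus near or below the shares of all genes, and the remaining lists ran from 36.4% to 88.9%. Some genes passed the filter only through the line in which they were high, so the shares describe the genes tested and are not a test.

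**Figure D4:**
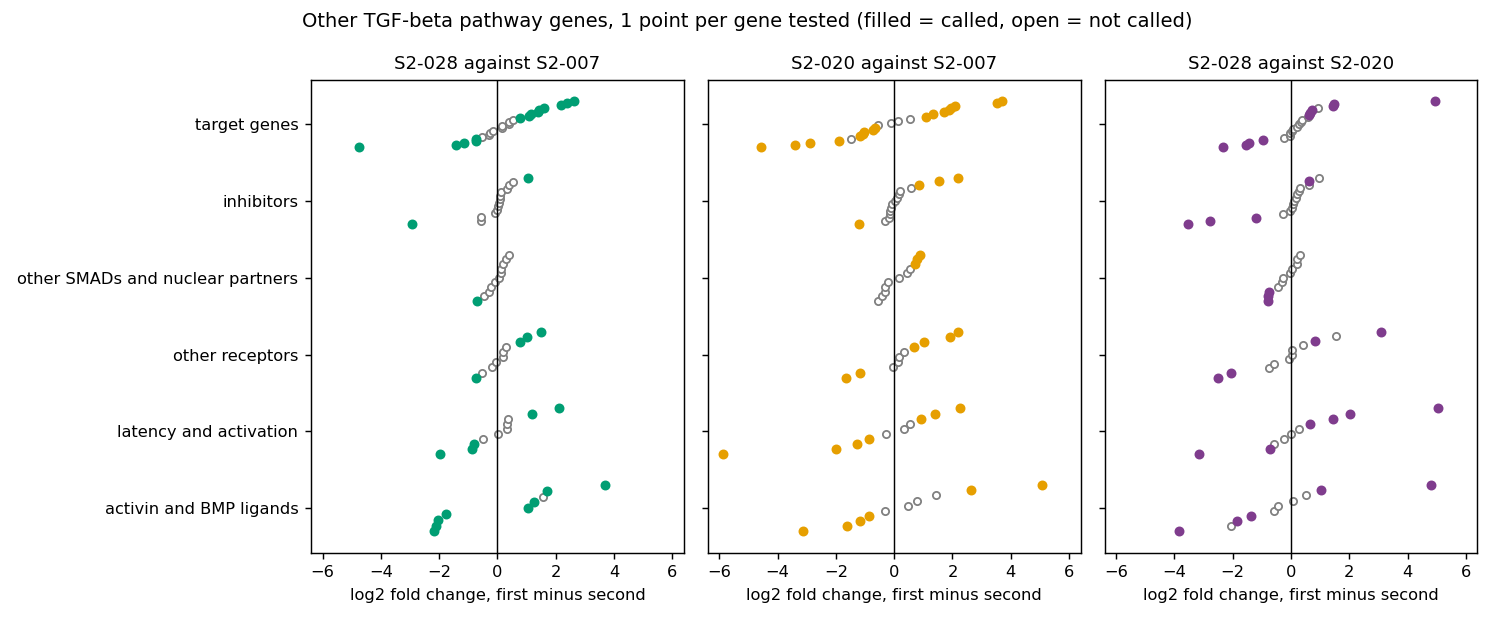
Log2 fold change, first line minus second, of every tested gene in 6 lists of TGF-β pathway genes, with 1 panel per comparison; filled points were called and open points were not. Ligand, latency and target genes spread to both sides of 0, out to -5.89 for ITGB6 in S2-020 against S2-007. Most inhibitors lie close to 0, and the SMADs and partners stay within -0.80 and 0.88. The median absolute value of the latter in S2-020 against S2-007 was 0.43, beside 0.39 for all genes.

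The other ligands differed in both directions. Of the activin and BMP ligands, 8 of 9 tested were called in S2-028 against S2-007, 4 higher and 4 lower, with a median log2 fold change of 1.04. In S2-020 against S2-007 it was 6 of 10 (2 higher, 4 lower, median 0.10), and in S2-028 against S2-020 5 of 10 (2 higher, 3 lower, median -0.52). INHBB, which encodes the subunit of activin B, was at 3.36, 3.17 and 2.98 CPM in S2-007, 108, 104 and 105 in S2-020, and 5.96, 7.74 and 8.57 in S2-028. It was the called ligand with the smallest adjusted p in S2-020 against S2-007, at 5.06 ± 0.0747 on the log2 scale (adjusted p = 2.26e-20). BMP4, a ligand of the BMP branch, was at 258 ± 10.4 CPM in S2-007, 143 ± 9.52 in S2-020 and 56.2 ± 4.82 in S2-028. BMP7 was likewise highest in S2-007, at 262 ± 11.6 CPM, against 84.9 ± 4.98 in S2-020 and 62.8 ± 3.61 in S2-028. BMP6 was lowest in S2-007 and highest in S2-028, at 1.84 ± 0.874, 11.4 ± 1.15 and 23.5 ± 2.21 CPM in S2-007, in S2-020 and in S2-028. GDF15, a divergent family member induced by cell stress, was at 47.2 ± 5.71, 38.4 ± 3.02 and 10.7 ± 1.78 CPM in the same order, and was called lower in S2-028 against each of the other lines.

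Of the 10 genes of latency and activation, 5 were called in S2-028 against S2-007 (2 higher, 3 lower, median log2 fold change 0.18). In S2-020 against S2-007 it was 7 (3 higher, 4 lower, median 0.02), and in S2-028 against S2-020 6 (4 higher, 2 lower, median 0.13). ITGB6 and ITGB8 encode the integrin subunits that free TGF-β from its latent complex. ITGB6 was at 68.1, 74.9 and 57.2 CPM in S2-007, 1.23, 1.21 and 0.924 in S2-020, and 39.1, 38.7 and 33.7 in S2-028. It was near 1 CPM in S2-020 and well above that in both other lines, at -5.89 ± 0.124 on the log2 scale against S2-007 (adjusted p = 3.56e-18). ITGB8 was also lowest in S2-020, at 36.0 ± 0.386 CPM, beside 143 ± 3.91 in S2-007 and 98.7 ± 2.83 in S2-028. THBS1, encoding thrombospondin 1, an activator of latent TGF-β, was highest in S2-020, at 1262 ± 157 CPM against 264 ± 50.6 in S2-007 and 142 ± 19.8 in S2-028. The LTBP genes, named for latent TGF-β binding, did not move together. LTBP1 was called lower and LTBP2 and LTBP3 were called higher in S2-028 against S2-007, at -1.97 ± 0.123, 2.10 ± 0.142 and 1.19 ± 0.0812 on the log2 scale.

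Of the other receptors, 4 of 10 tested were called in S2-028 against S2-007 (3 higher, 1 lower, median log2 fold change 0.19), 6 of 10 in S2-020 against S2-007 (4 higher, 2 lower, median 0.27) and 4 of 11 in S2-028 against S2-020 (2 higher, 2 lower, median 0.03). ACVR1B, the type I receptor of activin, was at 27.9 ± 0.676 CPM in S2-007, 45.1 ± 2.41 in S2-020 and 46.5 ± 1.22 in S2-028. Its type II partners went in different directions in S2-028 against S2-007, ACVR2A at -0.74 ± 0.127 and ACVR2B at 1.03 ± 0.126 on the log2 scale, both called. ACVR1C and BMPR1B, type I receptors of nodal and of BMPs, were both called higher in S2-020 against S2-007, at 2.20 ± 0.186 and 1.91 ± 0.159, and lower in S2-028 against S2-020. ENG, the co-receptor endoglin, was low throughout, at 1.10 ± 0.284 CPM in S2-007, 0.348 ± 0.104 in S2-020 and 3.01 ± 0.138 in S2-028, and was called in all 3 comparisons.

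The other SMADs and their nuclear partners changed least by count in S2-028 against S2-007, where 1 of 11 was called (median log2 fold change 0.05). That gene was SMAD6, the inhibitory SMAD of the BMP branch, at -0.69 ± 0.0692 (adjusted p = 5.51e-08). In S2-020 against S2-007, 3 of 11 were called, all higher (median 0.15), namely SMAD5, a BMP-activated SMAD, and SKI and TGIF2, corepressors of SMADs. In S2-028 against S2-020, 3 of 11 were called, all lower (median -0.28), namely SKI, SMAD1 and TGIF2. SKI was at 81.7 ± 3.98 CPM in S2-007, 139 ± 9.47 in S2-020 and 82.9 ± 3.14 in S2-028, and so, like SMAD7, was highest in S2-020.

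Of the inhibitors, 2 of 14 tested were called in S2-028 against S2-007 (1 higher, 1 lower, median log2 fold change 0.07), 4 of 15 in S2-020 against S2-007 (3 higher, 1 lower, median 0.03) and 4 of 15 in S2-028 against S2-020 (1 higher, 3 lower, median 0.11). FSTL3, a secreted protein that binds activins, was at 38.4, 42.7 and 52.5 CPM in S2-007, 70.8, 69.4 and 60.0 in S2-020, and 7.07, 5.45 and 4.72 in S2-028. S2-028 was far below both other lines, at -2.93 ± 0.134 against S2-007 and -3.54 ± 0.115 against S2-020 on the log2 scale. BAMBI, a pseudoreceptor that blocks signaling, was at 5.30, 5.40 and 4.08 CPM in S2-007, 20.7, 21.5 and 25.4 in S2-020, and 4.10, 3.03 and 2.81 in S2-028, so that it was high in S2-020, as SMAD7 was. NOG, an antagonist of BMPs, was also called higher in S2-020 against S2-007, at 1.55 ± 0.190. NEDD4L, a ubiquitin ligase of SMADs, was called higher in both other lines against S2-007, at 1.05 ± 0.0641 for S2-028 and 0.84 ± 0.0606 for S2-020, and LDLRAD4, which sequesters SMADs, was called lower in S2-020 against S2-007, at -1.22 ± 0.0942.

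Target genes of the pathway did not move in a common direction. In S2-028 against S2-007, 14 of 23 tested were called, 9 higher and 5 lower (median log2 fold change 0.38). For S2-020 against S2-007 it was 17 of 22, 8 higher and 9 lower (median -0.33), and in S2-028 against S2-020 10 of 21, 6 higher and 4 lower (median 0.26). CCN2, encoding connective tissue growth factor, was at 5.98 ± 0.166 CPM in S2-007, 77.8 ± 9.61 in S2-020 and 15.6 ± 2.02 in S2-028, and all 3 comparisons were called. PDGFB had the same order, at 5.14 ± 0.623, 59.9 ± 7.38 and 31.3 ± 2.07 CPM.

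TGFBI, a secreted matrix protein gene named for its induction by TGF-β, followed the order of TGFB2, at 152, 152 and 169 CPM in S2-007, 241, 235 and 208 in S2-020, and 368, 323 and 334 in S2-028. It was called in S2-028 against S2-007, at 1.14 ± 0.0651 (adjusted p = 7.16e-12). The other steps, at 0.53 ± 0.0614 in S2-020 against S2-007 and 0.58 ± 0.0597 in S2-028 against S2-020, lay just under the 1.5-fold limit. The former was called without S2-007 replicate 3 (0.62) or S2-020 replicate 3 (0.60), and the latter under upper-quartile factors (0.63) and without S2-028 replicate 2 (0.63), S2-028 replicate 3 (0.60), S2-020 replicate 1 (0.61) or S2-020 replicate 2 (0.59). TGM2, encoding transglutaminase 2, was at 397 ± 14.0 CPM in S2-007, 37.9 ± 2.07 in S2-020 and 1174 ± 152 in S2-028. ID1, which TGF-β represses and BMPs induce in epithelial cells, was at 134 ± 7.37, 35.6 ± 2.94 and 59.5 ± 3.60 CPM in the same order. ID2 was lowest in S2-007 and highest in S2-028, at 3.64 ± 0.341, 12.0 ± 1.08 and 18.8 ± 1.33 CPM. SNAI2, a transcription factor of epithelial-mesenchymal transition, was at 14.7 ± 2.17 CPM in S2-007 but 0.627 ± 0.137 in S2-020 and 0.538 ± 0.251 in S2-028, with log2 fold changes of -4.56 ± 0.180 in S2-020 and -4.75 ± 0.237 in S2-028 against S2-007. SNAI1 and FN1 of the same list were called in the other direction, from low levels of 0.399 and 0.291 CPM in S2-007. Against S2-007, SNAI1 was at 1.32 ± 0.377 in S2-020 and 1.40 ± 0.389 in S2-028. FN1 was at 2.09 ± 0.42 and 2.19 ± 0.388 in the same order.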

How the data were processed

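RNA of 9 libraries, 3 per line, was analysed, with groups taken from each library's title. According to the labels and the study's methods, strand-specific libraries were sequenced on a NovaSeq, and the submitters' processing notes name Trimmomatic 0.39, BWA 0.7.17, SAMtools 1.12 and edgeR 3.16.5, with GRCh38.p14; the study's methods name a different edgeR version. BWA is not splice-aware, which can cost reads that span exon junctions. The counting tool is not given in the sources used here. The authors deposited whole-number counts of reads per gene, without normalization, for 42717 genes. In the same table, 2 lines naming no gene and 18 columns of normalized values were not used here.

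Total counts were 71040887 to 75136834 in S2-007, 73775302 to 86253923 in S2-020 and 60328748 to 61800271 in S2-028. Each comparison used the 6 libraries of its lines, in R 4.3.3 with edgeR 4.0.16: filterByExpr (minimum count 10, minimum total 15), TMM factors, the quasi-likelihood F-test (glmQLFit, glmQLFTest) and Benjamini-Hochberg adjustment over all genes tested. Genes were called at an adjusted p under 0.05 and a change of at least 1.5-fold. The code was tested on simulated data. Standard errors were computed from the fold change and the F statistic. Printed CPM are TMM-normalized over the 9 libraries. Lengths are those of the GENCODE v44 MANE Select transcript, and 99.6% of gene identifiers were found in the RefSeq table of GRCh38.p14, from which coordinates came.

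Same-numbered libraries of different lines did not deviate together (correlation -0.022 to 0.014 over 9 pairs). Alternatives were the likelihood ratio test, DESeq2 1.42.0, other scaling factors and filters, all 9 libraries in a fit, other call rules, a replicate block and leaving out each library.

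The 10 genes and all lists were chosen with earlier results of these data known. From each of the 6 pathway lists, the called genes with the smallest adjusted p were named, at most 4 in S2-028 against S2-007 and 3 in the other comparisons, and always CCN2, TGFBI and ID1; a further gene under this rule is not reported here. SNAI1 and FN1 were named outside this rule, after their values were seen. Genes resembling a member were sought where its line means spanned at least 2 on the log2 scale.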

Additional observations from a re-analysis of the deposited data

How the results depend on the processing

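Of 420 values of the 10 genes under alternatives, 408 kept their direction and their side of the thresholds, 6 lost a call, 2 gained one and 4 changed sign. The calls lost were INHBA and TGFBR3 in S2-028 against S2-020, the latter also under upper-quartile factors (-0.55), and those gained were INHBA in S2-028 against S2-007 and TGFB3 in S2-020 against S2-007. The sign changed for values near 0. With a library left out, SMAD4 ran from -0.01 (without S2-020 replicate 3) to 0.25 in S2-020 against S2-007. In S2-028 against S2-020, SMAD4 ran from -0.07 (without S2-028 replicate 1; -0.05 without S2-020 replicate 2) to 0.21, TGFB3 from -0.04 (without S2-028 replicate 1) to 0.15, and SNAI2 from -0.43 to 0.13 (without S2-028 replicate 2). The cause was not tested.

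With a test against a 1.5-fold change, 1 of the 10 genes was called in S2-028 against S2-007 and 3 in S2-028 against S2-020, and 2977, 3639 and 3638 of all genes in the 3 comparisons, in place of 4858, 5769 and 5788. With the adjusted p alone, 8 of the 10 genes and 51 pathway genes were called in S2-028 against S2-020, and 8927, 10708 and 10517 of all genes. Leaving out a library gave 3 to 5 of the 10 genes in S2-028 against S2-020. Under the replicate block, 2, 4 and 5 of the 10 genes and 34, 43 and 32 pathway genes were called, the same counts as without it. Same-numbered libraries did not correlate over the genes that passed the filter. That does not show whether they shared a culture or a day of preparation.

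Without scaling to length, the shares of TGFB1 were 97.5%, 95.2% and 90.6% in S2-007, in S2-020 and in S2-028, those of TGFB2 1.25%, 4.10% and 8.54%, and those of TGFB3 0.738% in S2-020 and 0.889% in S2-028. With the union of annotated exons as length, an alternative chosen after seeing the data, TGFB1 was at 94.6% in S2-028, TGFB2 at 0.679% in S2-007 and 4.81% in S2-028, and TGFB3 at 0.472% in S2-020 and 0.581% in S2-028. With a library left out, the median of the genes nearest to TGFB2 ran from -0.33 to -0.16 in S2-028 against S2-007, -0.21 to -0.06 in S2-020 against S2-007 and -0.12 to -0.01 in S2-028 against S2-020, and that of the genes nearest to SMAD3 from -0.37 to -0.27 in S2-020 against S2-007. With the 20 nearest genes, it was -0.20 for TGFB2 in S2-028 against S2-020 and -0.29 for SMAD3 in S2-020 against S2-007. INHBA, with 20 to 77 counts per library, and SMAD4, with 39 to 59, had the largest standard errors of the 10 genes.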

Other observations

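SMAD2, the other SMAD that the type I receptor activates, was picked out after its values were seen. It had 1629, 1789 and 1354 CPM in S2-007, 1029, 1247 and 968 in S2-020, and 1387, 1034 and 952 in S2-028. Per kilobase of its transcript of 34626 bases this was 45.9 ± 6.35, 31.2 ± 4.25 and 32.5 ± 6.68 CPM in S2-007, in S2-020 and in S2-028, beside 52.2 ± 1.86, 26.9 ± 1.19 and 53.6 ± 2.13 for SMAD3.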
